A study of Mus musculus with 5 samples.

Results

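The genes of cell-cell junctions and tetraspanin membrane domains described here were the cadherins (Cdh), protocadherins (Pcdh), desmosomal genes (Dsg, Dsc, Pkp and Jup), tight junction genes (claudins, Ocln and Tjp), connexins (Gj) and tetraspanins (Tspan). They were chosen by symbol in the platform's probe annotation, a rule that uses no measured value, although the families were picked with earlier results of these data known. The annotation held 131 such genes on 139 features. Of these, 64 genes had a feature valued on 4 or all 5 arrays and are called measured, out of 10081 genes and unnamed features measured in the series. By family, 9 of 17 cadherins, 15 of 48 protocadherins, 6 of 9 desmosomal genes, 16 of 27 tight junction genes, 6 of 14 connexins and 12 of 16 tetraspanins were measured.

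RNA came from lungs of bleomycin-treated mice of the inbred strain 129svJ. Bleomycin is an antitumour antibiotic that breaks DNA and is widely given to mice to injure the lung. Each of the 5 arrays carried amplified lung RNA of 1 treated mouse in channel 1 and the same pool of amplified lung RNA of control 129svJ mice in channel 2, so there was 1 group of 5 replicates, mice 1 to 5, and the pool served as the only control. Dose, route, time after treatment, age, sex and the number of mice in the pool were not stated. Whole-lung RNA was measured, so fewer cells of a type and less RNA per cell cannot be told apart.

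Values are log ratios of the 2 channels, taken as log2, although no source names the log base. No source names the dyes either, which leaves the ratio's direction unsettled. Every value is therefore given by its side of 0, without saying whether mouse or pool was higher, and a fold is the size of the difference. Each array was centred on its median. Arrays held between 11350 and 12083 values, and every pair correlated across genes with Pearson's r between 0.732 and 0.857, so all ran the same way. Genes are not independent replicates, and the shared pool adds to these correlations. Of all genes tested, 24.1% passed the threshold defined below (adjusted p under 0.05) below 0 and 25.6% above 0. Among fixed marker lists, 10 of 13 endothelial, 6 of 11 alveolar type 1, 5 of 9 alveolar type 2 and 7 of 8 club cell genes passed above 0 with none below. In contrast, 7 of 9 macrophage genes passed below 0 and 1 above 0, and 9 of 12 skeletal muscle genes passed below 0 with none above. Mesothelium had 1 of 2 above 0 with none below. B and T cells had 1 of 7 below 0, and neurons and Schwann cells 2 of 5, with none above. The remaining lists had calls on both sides of 0. Among these, ciliated cells had 2 of 5 below 0 and 1 above 0, smooth muscle 1 of 6 below 0 and 1 above 0, and basal and squamous epithelium 4 of 8 below 0 and 1 above 0. The mean of the skeletal muscle list ranged from −3.47 in mouse 1 to −0.09 in mouse 3, the widest range over mice of the 14 lists.

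Epithelial and endothelial sheets are held together by several junctions. Cadherins bind their like on the next cell across adherens junctions and are tied to actin by catenins. Desmosomal cadherins do the same for keratin filaments through plakophilins and plakoglobin. Claudins and occludin form the tight junction that seals the space between cells, with the Tjp scaffolds beneath them, and connexins form gap junction channels between neighbouring cells. Tetraspanins are small membrane proteins that pass through the membrane repeatedly and gather integrins, proteases and receptors into domains. In lung, claudin 18 is typical of alveolar epithelium, claudin 5 of endothelium, and cadherin 11 of fibroblasts and other mesenchymal cells.

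The sequences shown first belong to the members on which the account turns: Cldn18, a lung claudin above 0 and known to be made in lung and stomach forms from alternative start sites; Cldn4, the claudin farthest below 0; and Tspan13, the member farthest from 0. Each is the 250 bases before a RefSeq start site of the GRCm38.p6 assembly, 5′ to 3′ on the gene's strand. For Cldn18 the upstream site is chr9:99717268-99717517 and the downstream site chr9:99710064-99710313, both on the minus strand. Cldn4 lies at chr5:134946935-134947184 and Tspan13 at chr12:36042479-36042728, also on the minus strand.
Cldn18, upstream start: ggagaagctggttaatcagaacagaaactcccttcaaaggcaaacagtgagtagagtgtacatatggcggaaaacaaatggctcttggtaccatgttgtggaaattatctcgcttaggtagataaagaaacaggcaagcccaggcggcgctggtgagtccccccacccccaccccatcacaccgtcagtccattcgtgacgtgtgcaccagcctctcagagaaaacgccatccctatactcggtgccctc
Cldn18, downstream start: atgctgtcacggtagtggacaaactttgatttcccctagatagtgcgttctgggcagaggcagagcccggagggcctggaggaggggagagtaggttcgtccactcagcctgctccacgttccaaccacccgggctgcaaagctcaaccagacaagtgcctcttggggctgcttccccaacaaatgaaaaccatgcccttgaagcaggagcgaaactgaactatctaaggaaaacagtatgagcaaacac
Cldn4: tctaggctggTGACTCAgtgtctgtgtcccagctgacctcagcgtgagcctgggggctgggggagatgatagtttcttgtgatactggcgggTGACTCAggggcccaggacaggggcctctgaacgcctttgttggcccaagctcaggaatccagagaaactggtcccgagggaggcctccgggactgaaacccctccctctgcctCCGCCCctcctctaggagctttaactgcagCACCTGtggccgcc
Tspan13: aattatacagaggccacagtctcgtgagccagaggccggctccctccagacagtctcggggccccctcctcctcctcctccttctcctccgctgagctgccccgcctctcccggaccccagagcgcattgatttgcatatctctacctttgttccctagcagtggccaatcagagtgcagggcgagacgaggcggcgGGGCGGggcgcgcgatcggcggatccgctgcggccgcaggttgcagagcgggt

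Capitals mark matches, on either strand, to 4 motifs. These were TGANTCA (the site of AP-1 factors), CACCTG (the E-box bound by Snail and ZEB repressors of junction genes), CTCAAG (the core bound by the lung factor NKX2-1) and GGGCGG (the GC box). Matches of different motifs did not overlap in these windows. The Cldn4 window held TGACTCA at 240 and at 158 bases before the start, CACCTG at 14 bases and 1 GC box, on the reverse strand, at 44 bases. The Tspan13 window held 1 GC box at 53 bases, and neither Cldn18 window held any of these motifs. Of all 32851 windows of this length, 6.75% held TGANTCA, 17.2% CACCTG, 13.3% CTCAAG and 32.7% GGGCGG. Only 38 measured members had a window, none of them on chromosome 18. Among their 49 windows, 10.2%, 20.4%, 18.4% and 42.9% held these motifs. A match describes the letters alone.

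The test asks whether a gene's mean ratio over the mice differs from 0, by limma, with p-values adjusted after Benjamini and Hochberg across the 10081, and an adjusted p under 0.05 is called past the threshold. Of the 64 measured members, 35 passed, 13 below 0 and 22 above 0. Among all genes tested 49.7% passed, 24.1% below 0 and 25.6% above 0, so the members' share of 54.7% was near the background. The share above 0 was 34.4% and the share below 0 was 20.3%. The median ratio of the members was 0.11, against −0.01 for all genes tested. The members' median size without sign was 0.26, against 0.21. At least 2-fold from 0 and past the threshold were 5 members, namely Tspan13, Cdh11 and Cldn18 above 0 and Pcdhgb4 and Cldn4 below 0, while 5.59% of all genes met that rule. All arrays with a value lay on 1 side of 0 for 34 of the 35 members past the threshold, the exception being Tjp1. The threshold itself favours such members, so this count is not separate evidence. Among all 64 measured members, all arrays lay below 0 for 13 and above 0 for 27.

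All arrays share the pool, so whatever sets the pool apart from other control mice enters every ratio. With the pool counted as 1 control mouse as variable as the treated mice, 4.95% of all genes passed, and 3 members did, namely Tspan13 (adjusted p = 0.0041), Cdh11 (adjusted p = 0.0217) and Pcdhgb4 (adjusted p = 0.0314). The other 32 members were lost in that setting, Cldn18 at adjusted p = 0.0679 and Cldn4 at adjusted p = 0.0853. Against a minimum difference of 1.2-fold, 12 of 64 members passed, 3 below 0 and 9 above 0. In that setting 1855 of all 10081 genes passed, 822 below 0 and 1033 above 0, a share close to that of the members.

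**Figure D1:**
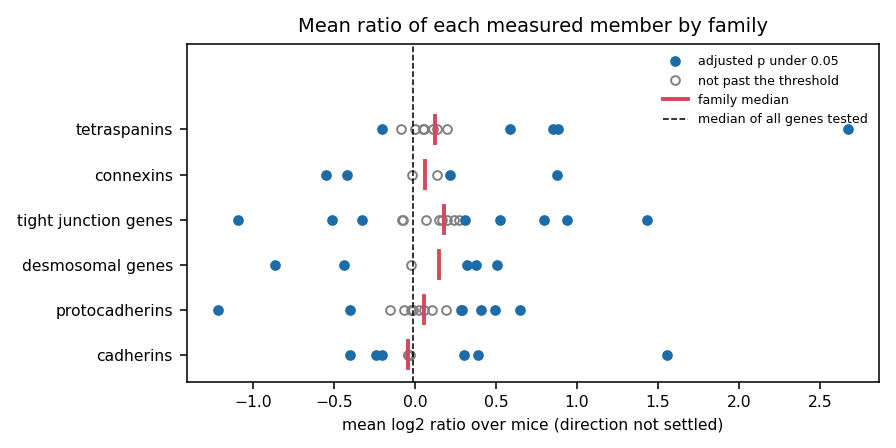
Mean log2 ratio over mice (horizontal axis) of each of the 64 measured members, by family. Filled points passed adjusted p under 0.05, open points did not, red bars are family medians and the dashed line is the median of all genes tested, −0.01. Each family has filled points on both sides of 0, and Tspan13 at 2.67 stands farthest out.

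Among the cadherins, 3 of 9 passed below 0, 3 above 0 and 3 did not pass. The family's median was −0.04. Cdh11, the cadherin of mesenchymal cells, stood at 1.99, 1.37, 1.59, 1.54 and 1.29 in mice 1 to 5. All 5 mice lay far above 0, with mouse 1 highest. Its mean of 1.55 ± 0.27 (SD, n = 5) is a 2.94-fold difference (adjusted p = 6.16e-05). Its side is not shared by the whole fibroblast marker list, of which 3 of 6 measured genes passed below 0 and 2 above 0.

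Cdh1, E-cadherin of epithelial adherens junctions, was at 0.33, 0.48, 0.16, 0.32 and 0.66 in the same order. All mice lay above 0, and the mean of 0.39 ± 0.19 passed (adjusted p = 0.00578) at a 1.31-fold difference. Cdh16, a cadherin named for kidney, also passed above 0 at 0.303 ± 0.13. Cdh2, N-cadherin of neural and mesenchymal cells, averaged −0.04 ± 0.08 with mice on both sides of 0 (adjusted p = 0.504). Cdh10 of neurons and Cdh17 of intestine and liver averaged −0.04 and −0.03 and did not pass.

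The cadherins below 0 were small in size and measured on 4 arrays each. Cdh15, M-cadherin of muscle precursors, stood at −0.62 in mouse 1, −0.04 in mouse 3, −0.39 in mouse 4 and −0.54 in mouse 5. Mouse 3 was nearest to 0, as it was for the skeletal muscle markers, whose mean was −3.47, −3.03, −0.09, −0.96 and −2.58 in mice 1 to 5. Their part in the Cdh15 ratio was not tested. The Cdh15 mean of −0.40 ± 0.26 passed (adjusted p = 0.0221) but did not when mouse 1, 4 or 5 was left out (adjusted p = 0.0661, 0.063 and 0.0831). Cdh20 averaged −0.24 ± 0.07 and Cdh22 −0.203 ± 0.04, and both calls were lost without mouse 2 or 5, that of Cdh22 also without mouse 1 or 4, with adjusted p up to 0.0839. Cdh5, the cadherin of endothelial junctions, was in the annotation but had no value on any array. Cdh13, an endothelial and muscle cadherin without a cytoplasmic tail, had values on 3 arrays, at −0.197, −0.044 and 0.005.

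Protocadherins, many of which are encoded in 3 gene clusters and known from neurons, had 2 of 15 below 0, 5 above 0 and 8 that did not pass. The genes of a cluster are close copies of each other, so a feature may also have bound transcripts of its neighbours, and the split between them is uncertain. Pcdhgb4, of the gamma cluster, stood at −1.49, −0.94, −1.30, −1.36 and −0.995 in mice 1 to 5. All mice lay close together and far below 0. The mean of −1.22 ± 0.24 is a 2.32-fold difference (adjusted p = 0.000104) and the lowest of all 64 members. The other gamma genes measured, Pcdhgc3 and Pcdhga6, averaged −0.07 and 0.02 and did not pass.

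In the beta cluster, Pcdhb19 averaged −0.404 ± 0.27 and passed below 0, with mouse 5 lowest at −0.83 and mouse 1 at −0.13. Above 0 stood Pcdhb20 at 0.497 ± 0.15 (adjusted p = 0.00113), Pcdhb18 at 0.405 ± 0.25, Pcdhb3 at 0.29 ± 0.12 and Pcdhb14 at 0.29 ± 0.14. The remaining beta genes, Pcdhb7, Pcdhb9 and Pcdhb22, ranged from −0.01 to 0.19 and did not pass. Members of the beta cluster thus lay on both sides of 0. Outside the clusters, Pcdh12, a protocadherin of endothelium, stood at 0.88, 0.17, 1.26, 0.62 and 0.33. Mouse 3 was highest and mouse 2 lowest, all above 0. Its mean was 0.65 ± 0.43 (adjusted p = 0.0115), 1.57-fold. The 13 measured endothelial markers averaged between 0.803 and 0.95 on each array. Single markers of that list had SDs over mice from 0.11 (Esam) to 0.73 (Tie1). Their part in the Pcdh12 ratio was not tested. Pcdh1, Pcdh9 and Pcdh17 averaged between −0.15 and 0.05 and did not pass.

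Desmosomal genes had 2 of 6 below 0 and 3 above 0, and Dsg2 did not pass. The plakophilins, which link desmosomal cadherins to the keratin-binding plaque, were on opposite sides. Pkp2, found in simple epithelia and heart, stood at 0.66, 0.24, 0.47, 0.53 and 0.62 (mean of 2 features except in mouse 3), with a mean of 0.504 ± 0.17 (adjusted p = 0.00133). Its features averaged 0.64 and 0.34 and both lay above 0 wherever measured. Only the feature with the higher average had a value in mouse 3. Pkp4, a relative that also joins adherens junctions, averaged 0.38 ± 0.18, and Pkp3 averaged 0.32 ± 0.22. The call of Pkp3 was lost without mouse 3 (adjusted p = 0.0541).

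Pkp1, the plakophilin of stratified epithelium, stood at −1.60 in mouse 2, −0.28 in mouse 3, −0.12 in mouse 4 and −1.45 in mouse 5. A pair of mice was far below 0 and the other pair near it. The mean of −0.86 ± 0.77 (n = 4) barely passed (adjusted p = 0.0422) and did not pass with mouse 2 or 5 left out (adjusted p = 0.133 and 0.144). The 8 measured basal and squamous markers averaged −0.97, −1.30, −0.61, −0.61 and −1.40 in mice 1 to 5, and 4 of them passed below 0 and 1 above. The skeletal muscle markers also lay nearest to 0 in mice 3 and 4. The part of either list in the Pkp1 ratio was not tested. Dsc2, a desmosomal cadherin, averaged −0.44 ± 0.12 on 4 arrays (adjusted p = 0.00308) with all of them below 0. Its partner Dsg2 averaged −0.02 ± 0.15 (adjusted p = 0.785). Jup, plakoglobin, had values on 3 arrays, at 0.052, −0.041 and −0.04.

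**Figure D2:**
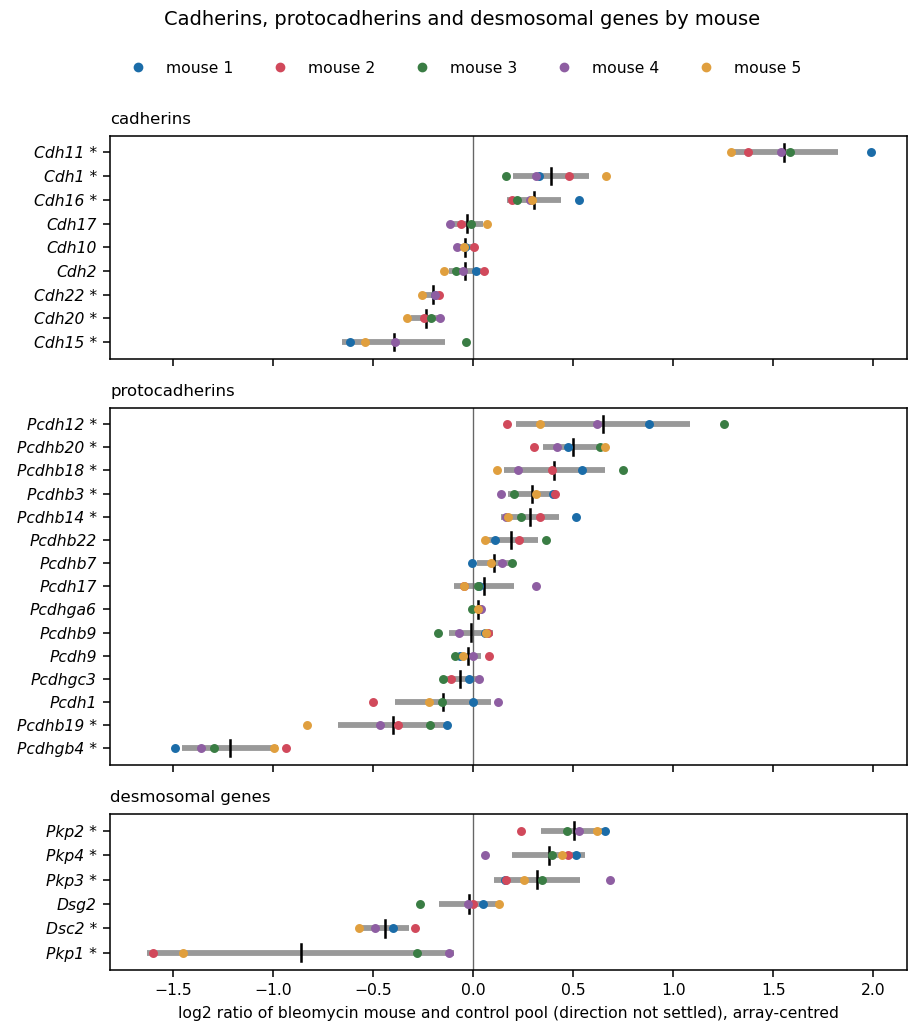
Log2 ratio (horizontal axis) of each measured cadherin, protocadherin and desmosomal gene. Points are mice, black ticks the mean, grey bars 1 SD on each side, and asterisks mark adjusted p under 0.05. Cdh11 lies between 1.29 and 1.99 and Pcdhgb4 between −1.49 and −0.94 in every mouse, while Pkp1 is split into mice near 0 and mice near −1.5.

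Tight junction genes had 3 of 16 below 0, 5 above 0 and 8 that did not pass, with a median of 0.18. Cldn18, the alveolar claudin, stood at 1.89, 1.02, 0.995, 1.65 and 1.61 in mice 1 to 5. All mice lay well above 0, with mice 2 and 3 lowest. The mean of 1.43 ± 0.402 is a 2.70-fold difference (adjusted p = 0.000305). Alveolar type 1 markers were likewise lowest in mice 2 and 3, with list means of 1.19, 0.65, 0.48, 0.94 and 0.96 in mice 1 to 5, and type 2 markers too, at 1.28, 0.67, 0.53, 0.87 and 1.09. The low means of both lists in mice 2 and 3 rest in part on single genes. In the type 1 list, Vegfa stood at −0.571 in mouse 3, against 0.71 to 1.84 in the other mice. Cav1, at 0.87 to 1.25 in the other mice, had no value in mouse 2. In the type 2 list, Sftpc stood at −2.275 in mouse 3, and Slc34a2, at 1.38 to 2.18 in the other mice, had no value in mouse 2. The part of the type 1 and type 2 lists in the Cldn18 ratio was not tested. A further Cldn18 feature had values on 3 arrays only, at −0.23, −0.05 and −0.12 in mice 1, 2 and 5, and did not enter the mean. With features on 3 or more arrays kept, the average of both was 0.94 (adjusted p = 0.00286), under 2-fold. Which start site each feature reports was not determined.

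Cldn4, an epithelial claudin known from airway and injured alveolar epithelium, stood at −1.49, −1.09, −1.24, −0.597 and −1.04. All mice lay below 0, mouse 4 nearest to it, on the side opposite to Cldn18. The mean of −1.09 ± 0.33 is a 2.13-fold difference (adjusted p = 0.000444). The claudins often found with it in airway and alveolar epithelium, Cldn3 and Cldn7, averaged 0.07 ± 0.07 and −0.07 ± 0.14 and did not pass (adjusted p = 0.283 and 0.431). Cldn2, a pore-forming claudin of leaky epithelia, averaged −0.51 ± 0.27 on 4 arrays (adjusted p = 0.00997), and Cldn11, the claudin of myelin and testis, −0.33 ± 0.15.

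Cldn5, the claudin of endothelial tight junctions, stood at 0.95, 0.87, 0.26, 1.18 and 1.45. All mice lay above 0, mouse 3 the lowest. The mean of 0.94 ± 0.44 is a 1.92-fold difference (adjusted p = 0.00266). Ocln, occludin, stood at 0.75, 0.22, 0.38, 0.85 and 0.44, a mean of 0.53 ± 0.26 (adjusted p = 0.00443). Tjp1, the scaffold ZO-1 that binds claudins to actin, stood at 0.75, 0.903, 1.37, 1.06 and −0.095. Mouse 5 alone lay on the other side of 0. The mean was 0.795 ± 0.55 (adjusted p = 0.0121), and without mouse 5 it was 1.02. Its call was lost with the plain, unmoderated one-sample test (adjusted p = 0.0689). The remaining claudins and relatives, Cldn15, Cldn16, Cldn23, Cldn34b2, Cldn34c4 and Cldnd1, averaged between −0.08 and 0.27 and did not pass, and mouse 1 was highest for 4 of them.

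Cldn10, known from epithelia as a gene with several first exons, shows what averaging can hide; it was singled out after its values were seen. Its features each had values on all 5 arrays. The feature annotated with the RefSeq transcript stood at 0.97, 1.31, 0.81, 1.12 and 0.89, a mean of 1.02 ± 0.198 (2.03-fold; adjusted p = 0.000112 when features were tested separately). The other, annotated with a cDNA clone, stood at −0.65, −0.26, −0.44, −0.33 and −0.33, a mean of −0.402 ± 0.16 (adjusted p = 0.00302). The features did not overlap and lay on opposite sides of 0 in every mouse. Their average of 0.31 ± 0.15 passed above 0 (adjusted p = 0.0086) and describes neither. Which transcripts each feature binds was not determined. For Tspan32, a tetraspanin of blood cells, the pair of features averaged 0.12 and −0.19, and neither passed (adjusted p = 0.0969 and 0.0656).

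**Figure D3:**
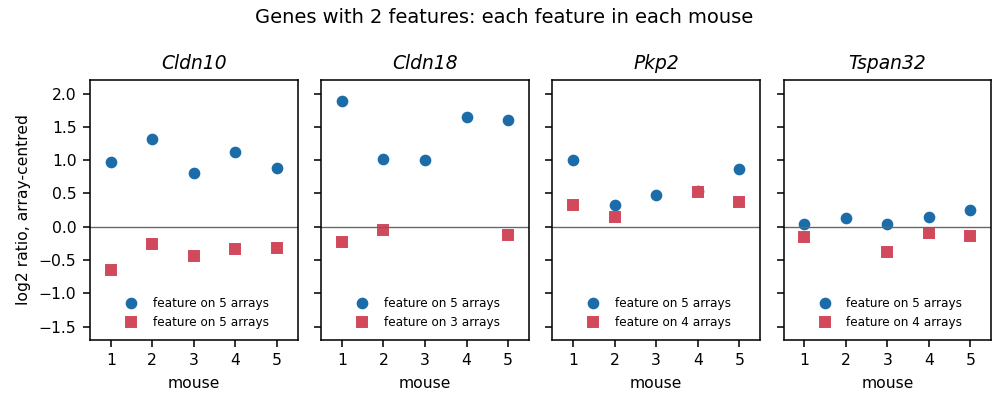
Log2 ratio (vertical axis) of each feature in mice 1 to 5 for Cldn10, Cldn18, Pkp2 and Tspan32; circles and squares are the features of a gene, and the legend gives the arrays on which each had a value. The Cldn10 features lie between 0.81 and 1.31 and between −0.65 and −0.26, and the Cldn18 feature on 3 arrays lies near 0.

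Connexins had 2 of 6 below 0 and 2 above 0. Gja1, connexin 43 of alveolar, muscle and endothelial cells, stood at −0.48, −0.54, −0.89, −0.32 and −0.52. All mice lay below 0, mouse 3 lowest. The mean of −0.55 ± 0.21 is a 1.47-fold difference (adjusted p = 0.00177). Gjb2, connexin 26 of epithelia, averaged −0.42 ± 0.17 (adjusted p = 0.00292) with all mice below 0. Gjb1, connexin 32, had the narrowest spread of the connexins, at 0.22 ± 0.03 (adjusted p = 0.00677). Gja5, connexin 40 of arterial endothelium and atrium, averaged −0.02 ± 0.08 with mice on both sides of 0 (adjusted p = 0.799). Gjb5, of stratified epithelium, averaged 0.14 ± 0.09 and did not pass. Gja4, connexin 37 of endothelium, had no value on any array.

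Gjc1, connexin 45 of smooth muscle and conducting heart tissue, differed between mice. It stood at 1.21, 1.04, 1.61, 0.24 and 0.28, high in mice 1 to 3 and low in mice 4 and 5, all above 0. The mean was 0.87 ± 0.598 (adjusted p = 0.0116; adjusted p = 0.0682 with the unmoderated test). Tspan15, a tetraspanin that guides the protease ADAM10, had the same split of high and low mice, at 1.18, 1.25, 1.31, 0.32 and 0.37, with a mean of 0.89 ± 0.49 (adjusted p = 0.00524). Smooth muscle markers averaged 0.09, −0.07, 0.46, 0.31 and 0.23, and cardiac markers 1.31, 0.27, 0.67, 0.76 and 0.95, in mice 1 to 5. The split was not particular to these members. Tie1, an endothelial marker, stood at 1.86, 1.01, 1.205, 0.09 and 0.24, although the endothelial list averaged between 0.803 and 0.95 on each array. Cxadr, a partner gene described below, stood at 1.89, 1.47, 1.685, 0.87 and 0.9. The part of any list in the Gjc1 and Tspan15 ratios was not tested.

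**Figure D4:**
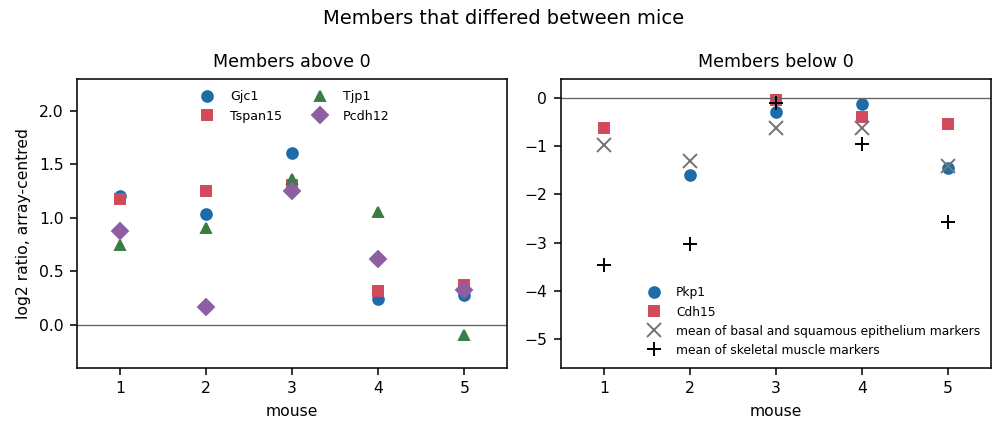
Log2 ratio (vertical axis) by mouse of members with a wide spread, with Gjc1, Tspan15, Tjp1 and Pcdh12 at left and Pkp1 and Cdh15 at right, beside the mean of the basal and squamous and the skeletal muscle marker lists (crosses). Gjc1 and Tspan15 are above 1.0 in mice 1 to 3 and below 0.4 in mice 4 and 5, and Tjp1 is below 0 only in mouse 5.

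Tetraspanins had 1 of 12 below 0, 4 above 0 and 7 that did not pass. Tspan13, a tetraspanin of largely unsettled function, stood at 2.62, 2.78, 2.87, 2.79 and 2.31 in mice 1 to 5. All mice were close together and far above 0, mouse 5 lowest. The mean of 2.67 ± 0.22 is a 6.37-fold difference (adjusted p = 8.37e-06). The next member of its family, Tspan15, was at 0.89. Tspan31 averaged 0.85 ± 0.21 (adjusted p = 0.000279) and Tspan3 0.58 ± 0.25 (adjusted p = 0.00237), with all mice above 0 for both. Tspan1, an epithelial tetraspanin, averaged −0.21 ± 0.13 (adjusted p = 0.0279), and its call depended on mice 1, 3 and 5, the adjusted p reaching 0.0874 when 1 of them was left out. Tspan4 had the widest spread of the family, at −0.93, −0.02, −0.09, 0.22 and 0.401, and did not pass (mean −0.08 ± 0.51, adjusted p = 0.717). Tspan2, Tspan6, Tspan11, Tspan17, Tspan32 and Tspan33 averaged between −0.002 and 0.199 and did not pass.

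**Figure D5:**
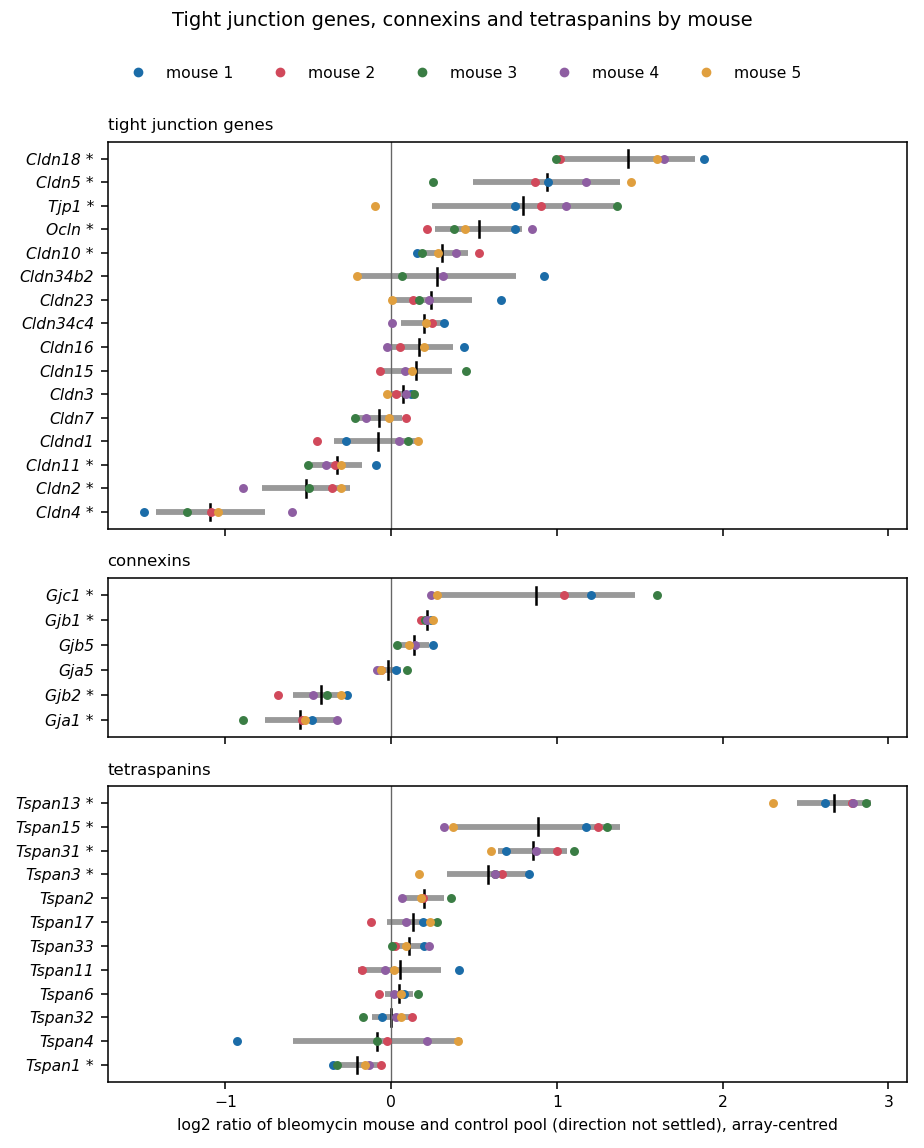
Log2 ratio (horizontal axis) of each measured tight junction gene, connexin and tetraspanin. Points are mice, black ticks the mean, grey bars 1 SD on each side, and asterisks mark adjusted p under 0.05. Tspan13 lies between 2.31 and 2.87, and Cldn18 and Cldn4 lie on opposite sides of 0 in every mouse.

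Other genes of the same structures, from lists chosen with earlier results of these data known, lay on both sides of 0. Of the 69 measured genes of these lists, 36 passed, 18 below 0 and 18 above 0. That share was near the background, as 49.7% of all genes tested passed, 24.1% below 0 and 25.6% above 0. Of 14 catenins and adherens junction proteins, 2 passed below 0 and 4 above 0. Ctnnb1, beta-catenin, which ties cadherins to actin and carries Wnt signals, stood at 2.36, 1.88, 2.13, 2.05 and 1.697, a mean of 2.02 ± 0.25 (4.06-fold, adjusted p = 2.5e-05). It was far above 0 in all mice, whereas its relative Ctnnd2 averaged 0.29 ± 0.12, and the actin linkers Tln1 and Afdn averaged −0.39 and −0.32. Of 21 tight junction scaffolds and adhesion molecules, 3 passed below 0 and 9 above 0. Cxadr, the adenovirus receptor of tight junctions, averaged 1.36 ± 0.46 and Epcam, an epithelial adhesion molecule that binds Cldn7, 1.24 ± 0.17, against Lsr, of tricellular contacts, at −0.48 ± 0.13 and the scaffold Magi1 at −0.35 ± 0.21.

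Of 9 measured genes of the desmosomal plaque and filaments, 4 passed below 0 and 1 above 0. Krt18, a keratin of simple epithelium, stood at −1.54 ± 0.23 (adjusted p = 3.76e-05) and Des, desmin of muscle, at −1.197 ± 0.79, while Perp, a desmosomal protein, stood at 0.43 ± 0.29. Treating the pool as 1 control mouse left 5 genes of these lists past the threshold, namely Ctnnb1, Patj, Epcam, Krt18 and Rom1 (adjusted p = 0.0109, 0.0234, 0.016, 0.0148 and 0.0402), of which Patj, a scaffold of tight junctions at 0.92 ± 0.13, was named after its values were seen. Krt7 averaged −0.12 and did not pass. Of 9 other genes of the cadherin superfamily 2 passed below 0 and 3 above 0, from Cdhr1 at −0.62 and Celsr3 at −0.32 to the calsyntenins Clstn1 at 0.49 and Clstn2 at 0.59. Of the pannexins, channel proteins that resemble connexins, Panx1 passed at −0.26 ± 0.12 and Panx3 did not, at 0.01. Of 5 tetraspanins with other names, 2 passed below 0 and 1 above 0: Rom1 averaged −0.595 ± 0.06, Upk1a −0.27 ± 0.08 and Cd81 0.78 ± 0.22, while Cd82 averaged 0.01. Of 9 tetraspanin partners, 4 passed below 0 and 0 above, with the protease Mmp14 at −1.01 ± 0.31 and the immunoglobulin protein Igsf8 at −0.56 ± 0.12, and the integrin chains Itga6 at −0.01 and Itga3 at 0.27 did not pass.

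Of the 67 members that were not measured, 28 had no value on any array and 39 had values on 1 to 3 arrays. The 16 with values on 3 arrays averaged between −0.592 and 0.27. With features on at least 3 arrays kept, 2 of these 16 passed below 0 and 3 above 0. In that setting 5119 of all 11316 genes passed, 2461 below 0 and 2658 above 0, a larger share. The members that passed were Tspan5 at −0.592 and Cdh3, P-cadherin, at −0.38, and Pcdha4, Cldn13 and Cldn8 at 0.27, 0.26 and 0.23. Members on exactly 4 arrays numbered 20, of which Pkp1 and Cldn2 stood lowest, at −0.86 and −0.51. No value is given here for members on 1 or 2 arrays, and the absence of a value says nothing about expression.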

How the data were processed

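Lung RNA of 5 bleomycin-treated mice was hybridised on 2-colour arrays against 1 control pool, per the labels. The authors deposited a log ratio for each feature on each array, taken here as log2 and already centred near 0 (deposited medians 0.011 to 0.026). The sources used here do not give dyes, scanner, normalization or log base, and signal over background is unknown, so the number of arrays limits the precision.

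Of 17280 features, 10702 had values on at least 4 arrays. Each array was centred on its median over these. Symbols came from the platform annotation and were updated by gene identifier with a RefSeq table of GRCm38.p6 (14445 of 14723 annotated features matched). Features of a symbol were averaged, which gave 10081 genes and unnamed features. The mean of each was compared with 0 in limma 3.58.1 under R 4.3.3 (intercept only, two-sided, Benjamini-Hochberg adjustment). The fit was run on simulated independent genes without a shared pool, so that check cannot cover error that comes from the pool. The pool counts as 1 control sample, so the spread between control mice is left out, and without a dye swap in the labels dye bias does not cancel. Whether the mice shared a cage or day is not given.

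Members and lists were chosen with earlier results of these data known, and no list was tested as a set. The genes named were members at least 2-fold from 0 and past the threshold, the 2 farthest from 0 on each side of each family, a fixed set of lung junction genes, and the 2 genes at each end of each partner list. The other 10 members past the threshold were added after their values were seen. Promoter windows came from a set of RefSeq (GRCm38.p6) windows. That set held 38 of the 64 measured members, none of them on chromosome 18, and no others are shown. Alternatives changed the filter, centring, scale, averaging, moderation, the role of the pool and the mice included.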

Additional observations from a re-analysis of the deposited data

Results flagged for a closer look

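Of 41 members examined, 1 had a mouse far from the others. Pkp4, a plakophilin-related protein of desmosomes and adherens junctions, stood at 0.057 in mouse 4 and between 0.395 and 0.515 in the other mice. The gap to the nearest mouse was 0.738 of the whole range, above Dixon's 95% critical value of 0.71 for 5 samples. Chance flags about 1 in 20 such groups, so 1 among 41 is no more than chance gives.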

How the results depend on the processing

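Member calls stayed within 1.5 times of 35 under the filters, centrings, scalings, array weights, averaging and the plain one-sample test, from 25 to 40, and without each mouse in turn from 30 to 34; the whole table gave 4115 to 4607 and the partner lists 29 to 35 without each mouse. With features on all 5 arrays, 7 members passed below 0 and 22 above 0, since fewer were tested. Calls fell with the pool counted as 1 control mouse (3 members, 5 partner genes, 499 of all) and with a required 1.2-fold difference (12 members, 15 partner genes, 1855 of all). Over named members, 525 of 612 alternative values kept side and call, and 81 lost the call. The plain test lost 10: Cdh15, Gjc1, Pkp1, Pkp3, Pcdhb19, Pcdhb18, Pcdh12, Tspan1, Cldn2 and Tjp1. Of the 35 calls, 29 held without each mouse. The side turned for Cldn10 with 1 feature per symbol, and for the cDNA clone feature alone, a setting chosen after seeing the data (−0.402); for 3 members that did not pass it turned too, for Dsg2 with values on at least 3 arrays (0.012) and without mouse 3 (leaving out mice gave −0.062 to 0.037), for Gja5 without centring (0.0012) and for Tspan4 without mouse 1 (leaving out mice gave −0.204 to 0.128). No paired analysis was possible because there is 1 group.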
